A study of Bos taurus with 2 samples.

Results

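The genes described here were the HOX genes and the DLX, MSX, BARX, PITX, ALX, PRRX, LHX, IRX, MEIS, PBX and TBX genes, families of transcription factors that give tissues their position in the body. They were taken by name alone, from the accession of each probe and the symbol that the RefSeq table of the assembly ARS-UCD2.0 gives it. Of the genes listed there, 89 that met the naming rule were looked for. Probes of 31 of them, 51 probes in all, were found among the 9647 genes with a symbol on the arrays, and the other 58 were not analysed here. RNA came from the front part of the muzzle of 2 HanWoo cows, a native Korean breed. One had a yellow nose and the other a black nose, and both were females of 30 months. Each group was 1 cow read on 1 array, taken as a representative of its muzzle colour, so no difference below has a replicate check and no test was made. The tissue was taken whole, so fewer cells of a type and less RNA per cell cannot be told apart.

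HOX genes lie in clusters and are switched on in order along the trunk and limbs, whereas the face is built largely by neural crest cells from ahead of the HOX domain. There, DLX, MSX, ALX, BARX, PITX, PRRX and LHX genes divide the jaws and the nose into regions, and several of them work again in the epidermis and the hair follicle. MEIS and PBX proteins bind DNA together with HOX and other homeodomain proteins. T-box proteins are a separate family with roles in limb, heart, face and pituitary development.

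Of the 26 genes with a ratio, 3 were at least 2-fold lower in the black-nosed cow, MEIS1, HOXC4 and TBX19, against 6.47% of all genes with a ratio. LHX5 was at least 2-fold higher there, with a ratio that is a lower bound, against 9.86% of all genes. By their gene means, bright genes of the facial mesenchyme and epidermis lay on both sides of 0 by less than 2-fold. For DLX3 the mean was -0.32, but its bright probe was past 2-fold lower, at -1.12, and its dim probe was at 0.48. MSX1, MSX2, DLX5 and IRX3 had ratios below 0 and BARX2 and PRRX1 ratios above 0. Most HOX genes were dim or not well above background in both cows.

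The arrays were Agilent bovine 1-colour arrays, on which the Cy3-labelled RNA of each cow is read alone. The value of a spot is its processed signal, a brightness after background subtraction, and its level is the log2 of that signal minus the 75th percentile of the array, which was an intensity of 1144 in the yellow-nosed cow and 1137 in the black-nosed cow. A level of 0 therefore equals that percentile. The scanning software marked 78.8% and 81.9% of noncontrol spots well above background, and no spot was saturated. The lowest such signal was 20.8 in the yellow-nosed cow and 20.3 in the black-nosed cow. The 153 negative control spots had a median intensity of 4.92 and 4.82. All log2 ratios are black nose minus yellow nose, so a negative ratio means a lower signal in the black-nosed cow. The error given after ± is the software's own estimate for the spots of a probe, carried to the ratio. It covers reading error on 1 array per cow, not the spread between animals. The brightness of a probe depends on the probe as well as on the transcript, so levels of different genes were not compared as amounts of RNA. Where genes are called bright or dim, or levels are summed over genes, only probe signal is meant.

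At least 1 probe was well above background on both arrays for 20 of the 31 genes (64.5%), against 88.2% of all 9647 genes. A further 4 genes, ALX4, DLX4, HOXA2 and LHX3, were well above background only in the yellow-nosed cow, and HOXB3 and LHX5 only in the black-nosed cow. Of all 9647 genes, 8509 were measured on both arrays by the same probe. Of the others, 129 were well above background in the yellow-nosed cow and 286 in the black-nosed cow. For the 6 members seen in 1 cow only, the ratio given is a lower bound, and it holds for the scaled processed signals only. It sets the bright level against the dim probe's own level or the lowest level well above background on its array, whichever was higher. For ALX4 the dim probe's own level was the higher, so its value is the plain ratio. Normexp background correction gave smaller values. They were -0.32 for ALX4, -0.28 for HOXA2, -0.13 for LHX3, -0.013 for DLX4, 0.30 for HOXB3 and 0.47 for LHX5. The remaining 5 genes, HOXA3, HOXA4, HOXA5, HOXA10 and LHX9, were well above background in neither cow, against 7.6% of all genes. Counted by probe, 31 of 51 were measured in both cows, 7 in only 1 cow and 13 in neither. The 13 dim probes had intensities between 4.32 and 21.4 in the yellow-nosed cow and between 4.26 and 18.2 in the black-nosed cow, a range that reaches down to the negative control spots.

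**Figure D1:**
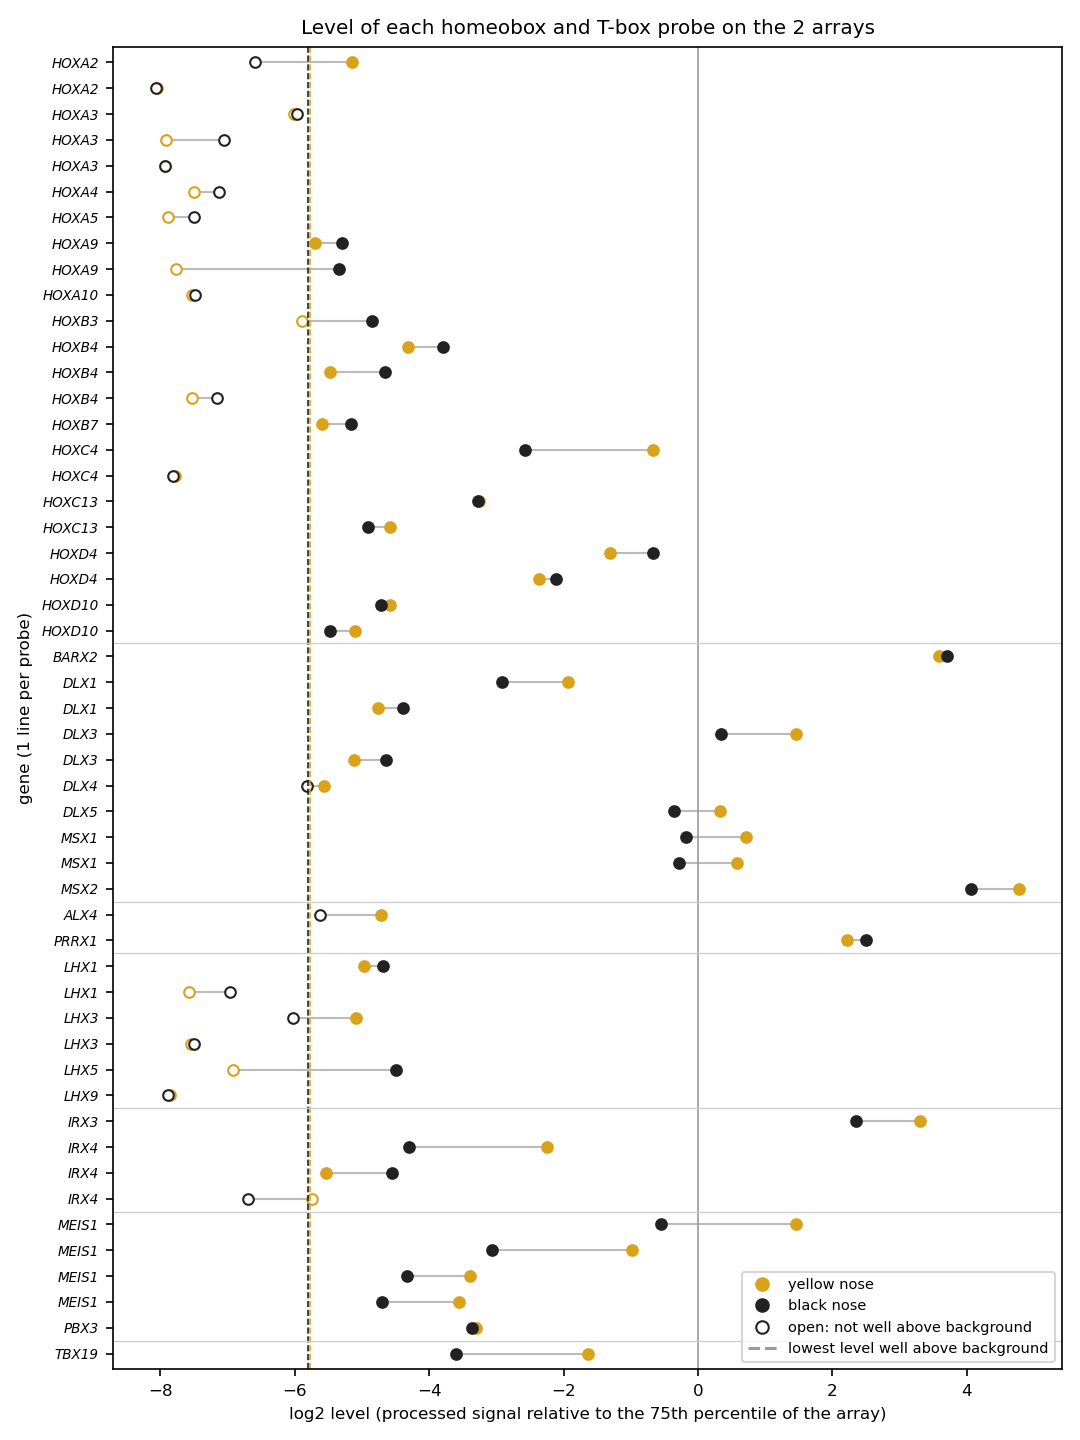
Log2 level of each of the 51 probes (x axis, relative to the 75th percentile of the array) in the yellow-nosed cow (yellow) and the black-nosed cow (black), 1 line per probe, grouped by family. Open points were not well above background. Most HOX and LHX probes lie near or left of the dashed detection lines, while BARX2, MSX2, PRRX1, IRX3 and 1 probe of DLX3 lie right of the percentile in both cows.

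With lower bounds counted, 26 genes had a ratio. Of these, 1 was at least 2-fold higher and 3 at least 2-fold lower in the black-nosed cow. Among all 8914 genes with a ratio the shares were 9.86% higher and 6.47% lower. In a list this short neither count is read as a difference from all genes. The split depended on scaling. Under quantile normalization 0 genes were higher and 7 were lower, since ALX4, HOXA2, LHX3 and IRX3 then passed 2-fold, and under loess normalization 1 was higher and 6 were lower. Over the 20 genes measured in both cows the median log2 ratio was -0.28, with 7 above and 13 below 0. For all 8509 genes measured in both cows the median was 0.055, with 4636 above and 3873 below 0. Within 1.5-fold lay 12 of the 20, a count with no share of all genes beside it.

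**Figure D2:**
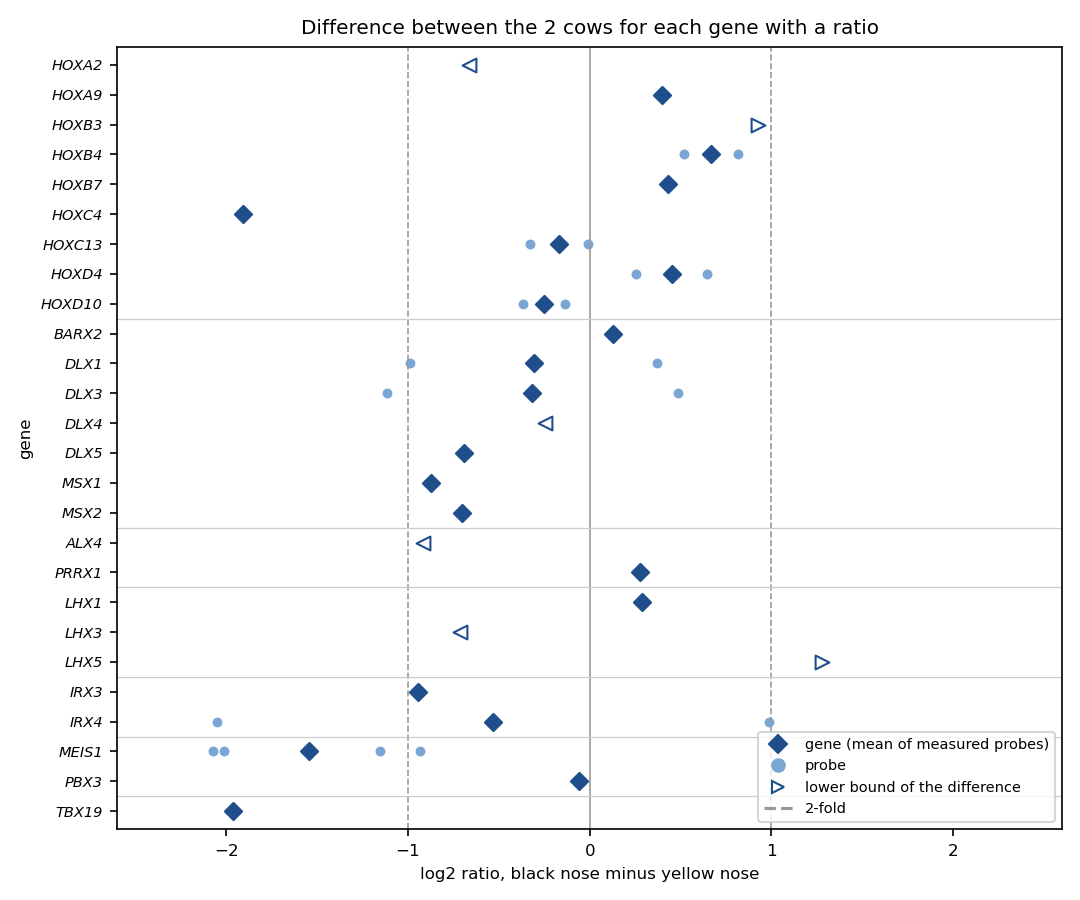
Log2 ratio (x axis, black minus yellow nose) of the 26 genes with a ratio. Diamonds are genes, small points are their probes measured in both cows, open triangles are lower bounds and dashed lines mark 2-fold. MEIS1, HOXC4 and TBX19 lie left of the lower line and LHX5 right of the upper one, and the probes of DLX1, DLX3 and IRX4 lie on both sides of 0.

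MEIS1 is a homeodomain protein of the TALE class that pairs with PBX and HOX proteins on DNA. It was the member with the most probes, 4, and all 4 were measured in both cows and were lower in the black-nosed cow. The brightest had an intensity of 3158 in the yellow-nosed cow and 776 in the black-nosed cow, a log2 ratio of -2.02 ± 0.20. The next went from 576 to 136, a ratio of -2.07 ± 0.21. The 2 dimmer probes went from 109 to 56.8 (-0.93 ± 0.24) and from 97.5 to 43.5 (-1.15 ± 0.25). All probes thus had the same direction, and the brighter pair gave about 1 log2 unit more than the dimmer pair. Their mean was -1.54 (SD 0.59 between the 4 probes), which is 2.92-fold lower in the black-nosed cow. It lay between -2.02 and -1.14 over the other processing choices, always past 2-fold. Its partner PBX3, of which 1 probe was found, had intensities of 116 and 110 and a ratio of -0.06 ± 0.22.

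HOXC4 lies at an end of the HOXC cluster, and HOXC genes are known from skin appendages. A probe of HOXC4 had an intensity of 717 in the yellow-nosed cow and 190 in the black-nosed cow. The log2 ratio was -1.91 ± 0.21, 3.75-fold lower. Its other probe stayed at 5.18 and 5.08, at the level of the negative control spots, so the difference rests on 1 probe. When dim probes were averaged in unfiltered, the ratio was -0.96, short of 2-fold. HOXC13, a regulator of hair and nail keratins, was measured by 2 probes. The brighter had intensities of 120 and 118 and the dimmer of 47.8 and 37.8, with a mean log2 ratio of -0.17.

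In the HOXD cluster, HOXD4 was well above background on both of its probes. One had intensities of 462 in the yellow-nosed cow and 718 in the black-nosed cow, a log2 ratio of 0.65 ± 0.20, and the other 221 and 262, a ratio of 0.26 ± 0.21. Both probes were brighter in the black-nosed cow, and their mean was 0.45. HOXD10, a gene of the distal limb and the lower trunk, had probes at 47.6 and 43.0 and at 33.2 and 25.6, with a mean ratio of -0.25.

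The HOXB genes found were all dim and all somewhat brighter in the black-nosed cow. HOXB4 had probes at 57.7 and 82.2 and at 25.7 and 44.8, with ratios of 0.52 ± 0.26 and 0.81 ± 0.34, and another probe above background in neither cow. HOXB7 went from 23.6 to 31.7, a ratio of 0.43 ± 0.40. HOXB3 was not well above background in the yellow-nosed cow, at 19.2, and was 39.4 in the black-nosed cow, at least 1.90-fold higher. Of the HOXA genes, HOXA9 had a probe at 22.1 and 28.9, a ratio of 0.40 ± 0.41, and another at 5.25 and 28.1 with a lower bound of 0.44. HOXA2, which patterns the second pharyngeal arch, had a probe at 32.4 in the yellow-nosed cow and 11.8 in the black-nosed cow, at least 1.59-fold lower, and another at 4.32 and 4.26. HOXA3, HOXA4, HOXA5 and HOXA10 gave no ratio on any of their probes.

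Over the 7 HOX genes measured in both cows the median log2 ratio was 0.40, with 4 above and 3 below 0. Among all 8509 genes measured in both cows 4636 were above and 3873 below 0. Of the 4 HOX genes above 0, HOXA9, HOXB4 and HOXB7 were at low signal and HOXD4 was not. Over all 615 genes whose mean level was under -4 the median ratio was 0.10, and for the 7 homeobox genes in that range, 5 of them HOX genes, it was 0.29 with 4 above 0. Under loess normalization the median of the 615 genes became -0.084. That of the 7 HOX genes became 0.044 under loess and 0.010 under quantile normalization, but HOXC4 and HOXD4 among them lie outside that level range. Over all choices the ratio of HOXB4 was at least 0.34, while that of HOXA9 went down to 0.010 and that of HOXB7 to 0.089 under quantile normalization. Without a filter on dim probes HOXA9 (1.41) and HOXB3 (1.05) passed 2-fold.

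TBX19, also called TPIT, is known as a T-box factor of the pituitary, where it drives the gene for the melanocortin precursor POMC. It was the T-box gene that could be matched to a probe, by 1 probe. The intensity was 368 in the yellow-nosed cow and 93.9 in the black-nosed cow. The log2 ratio was -1.96 ± 0.22, 3.90-fold lower, and -1.41 under normexp background correction, the smallest of the choices tried. The other 12 TBX genes of the table, among them TBX1, TBX3, TBX15, TBX18 and TBX22, were not analysed here.

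PRRX1, which marks mesenchyme and dermal fibroblasts, went from 5335 to 6428, a ratio of 0.28 ± 0.20. ALX4, a gene of the nose and skull mesenchyme, was dim in both cows. It had 43.6 in the yellow-nosed cow and 23.0 in the black-nosed cow, where it was not well above background. The plain log2 ratio of these signals was -0.92 ± 0.39, 1.89-fold lower.

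The MSX genes act in facial mesenchyme and in the hair follicle, and MSX2 also in epidermis. MSX2 had an intensity of 31294 in the yellow-nosed cow and 19080 in the black-nosed cow, a log2 ratio of -0.71 ± 0.20. The 2 probes of MSX1 had nearly the same values, 1875 and 1704 in the yellow-nosed cow and 1006 and 935 in the black-nosed cow. Their ratios were -0.89 and -0.86, each ± 0.20, so that the probes differed far less from each other than the cows did. BARX2, an epithelial and muscle homeobox gene, was bright in both cows, at 13667 and 14831, with a ratio of 0.13 ± 0.20 that turned to -0.033 under quantile normalization.

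DLX genes set the identity of the upper and lower jaw, and DLX3 is also a regulator of epidermal differentiation. DLX5 went from 1433 to 883, a log2 ratio of -0.69 ± 0.20. The probes of DLX3 did not go the same way. The brighter went from 3130 in the yellow-nosed cow to 1434 in the black-nosed cow, a ratio of -1.12 ± 0.20, and the dimmer from 32.9 to 45.7, a ratio of 0.48 ± 0.34. DLX1 did likewise, with a brighter probe from 300 to 150.1 (-0.99 ± 0.21) and a dimmer one from 42.1 to 54.1 (0.37 ± 0.33). In both genes the probe near the detection limit was the one that was brighter in the black-nosed cow. Taken by its brightest probe alone, DLX3 was past 2-fold, and DLX1 just short of it. DLX4 was at 24.2 and 20.1, the latter not well above background, and at least 1.19-fold lower. Of the 6 genes of the DLX, MSX and BARX families measured in both cows, 5 had a ratio below 0, and the median was -0.50. Among all 8509 genes measured in both cows 3873 were below 0.

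IRX3, an Iroquois gene, went from an intensity of 11281 in the yellow-nosed cow to 5825 in the black-nosed cow. The log2 ratio was -0.94 ± 0.20, the closest to 2-fold among measured genes that did not reach it, and it was -1.04 under quantile normalization. IRX4 had the widest disagreement between probes. One went from 240 to 57.5, a ratio of -2.05 ± 0.24, and another went from 24.6 to 48.5, a ratio of 0.99 ± 0.35. The third was above background in neither cow. The mean of -0.53 therefore describes neither probe.

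LHX genes code for LIM-homeodomain proteins with roles in neurons, pituitary and limb. None of the 4 found was bright in the muzzle. LHX5, known from the forebrain, was not well above background in the yellow-nosed cow, at 9.46, and had 50.2 in the black-nosed cow, at least 2.42-fold higher. This bound was 1.28 on the log2 scale as reported, 0.98 under quantile normalization and 0.47 under normexp background correction, the last 2 short of 2-fold. LHX1 had a probe at 36.4 and 44.2, a ratio of 0.29 ± 0.35, and another above background in neither cow. LHX3 was at 33.4 in the yellow-nosed cow and 17.5 in the black-nosed cow, where it was not well above background, at least 1.64-fold lower. LHX9 had intensities of 4.92 and 4.82, equal to the negative control medians.

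**Figure D3:**
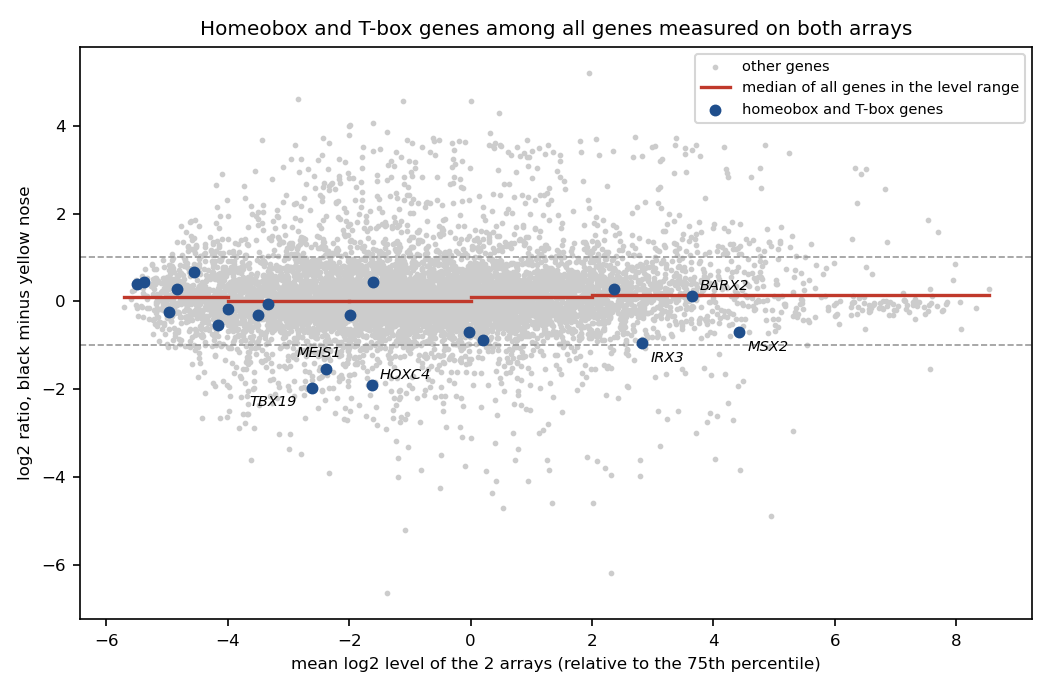
Log2 ratio (y axis, black minus yellow nose) against the mean log2 level of both arrays (x axis) for the 8509 genes measured in both cows. Blue points are the 20 homeobox and T-box genes and red lines the median of all genes in each of 5 level ranges. TBX19, HOXC4 and MEIS1 lie below the lower 2-fold line at intermediate levels, and the dimmest members lie on both sides of the red line at the left, within 2-fold.

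Agreement between probes could be read for the 9 members with more than 1 probe measured in both cows. In 4 of them, DLX1, DLX3, IRX4 and MEIS1, the ratios spanned more than 1 log2 unit. Among all 5363 such genes this was the case in 10.0%. In 3 of the 9, DLX1, DLX3 and IRX4, probes pointed in opposite directions, as they did in 29.3% of all such genes. The scanning errors of the 31 measured probes lay between 0.20 and 0.41, with a median of 0.22, so in these 4 genes the probes of a gene differed by more than the reading error.

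**Figure D4:**
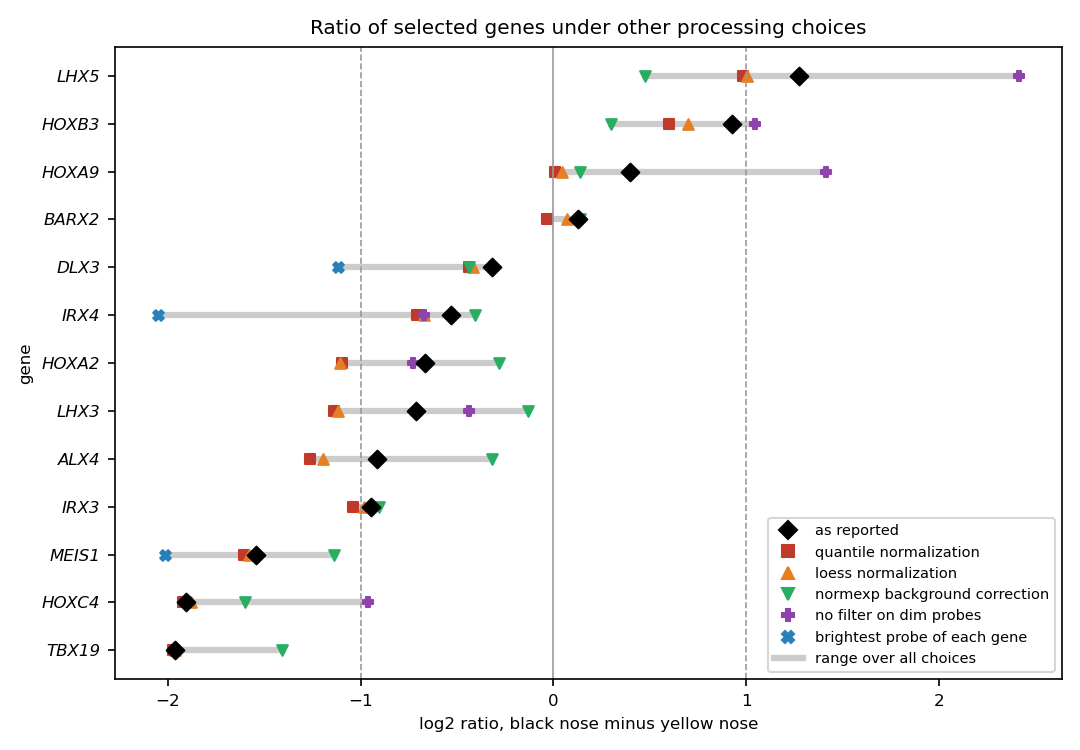
Log2 ratio (x axis) of the 13 genes that were past 2-fold or changed side or sign under some processing choice. Black diamonds are the reported values, coloured marks are 5 of the alternatives and grey bars span all alternatives. MEIS1 and TBX19 stay outside 2-fold throughout, while LHX5 and HOXC4 reach inside it.

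Genes that work with these factors were taken from lists. Of the cofactors of HOX outside the rule, TGIF1 had a log2 ratio of -0.94 and PKNOX1 one of 0.37, CREBBP lay at -0.22, and PKNOX2 was above background in neither cow. LIM partners of the LHX proteins were measured for 9 of 13 genes, and none reached 2-fold. The lowest were LMO2 (-0.72), LMO1 (-0.65) and SSBP3 (-0.59), and the highest ISL1 (0.94), LDB2 (0.54) and LMO3 (0.06), with a median of -0.22. Polycomb and Trithorax proteins keep HOX genes silent or active. They were measured for 10 of 25 genes, with none past 2-fold and a median of 0.02. CBX8 (-0.58), RNF2 (-0.43) and RING1 (-0.38) were lowest, and PCGF2 (0.97), EED (0.13) and CBX6 (0.09) highest, although the probes of PCGF2 ranged from -0.98 to 3.29.

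Other factors of the craniofacial mesenchyme and ectoderm were measured for 11 of 30 genes, of which 3 were at least 2-fold lower and 1 at least 2-fold higher in the black-nosed cow. Among all genes with a ratio the shares were 6.47% lower and 9.86% higher. In a list this short neither count is read as a difference from all genes. EYA2, a coactivator that lacks a DNA-binding domain of its own, had the lowest ratio, -1.78, with an intensity of 3760 in the yellow-nosed cow and 1088 in the black-nosed cow. TFAP2B followed at -1.22 and TWIST2 at -1.13. OSR2, a factor of the palate, had the highest, 2.70, from 101 to 656, and its other probe was well above background only in the black-nosed cow. EDN1 (0.55) and HAND1 (0.45) came next, but the probes of HAND1 ranged from -0.52 to 2.47. The median of the list was -0.19.

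**Figure D5:**
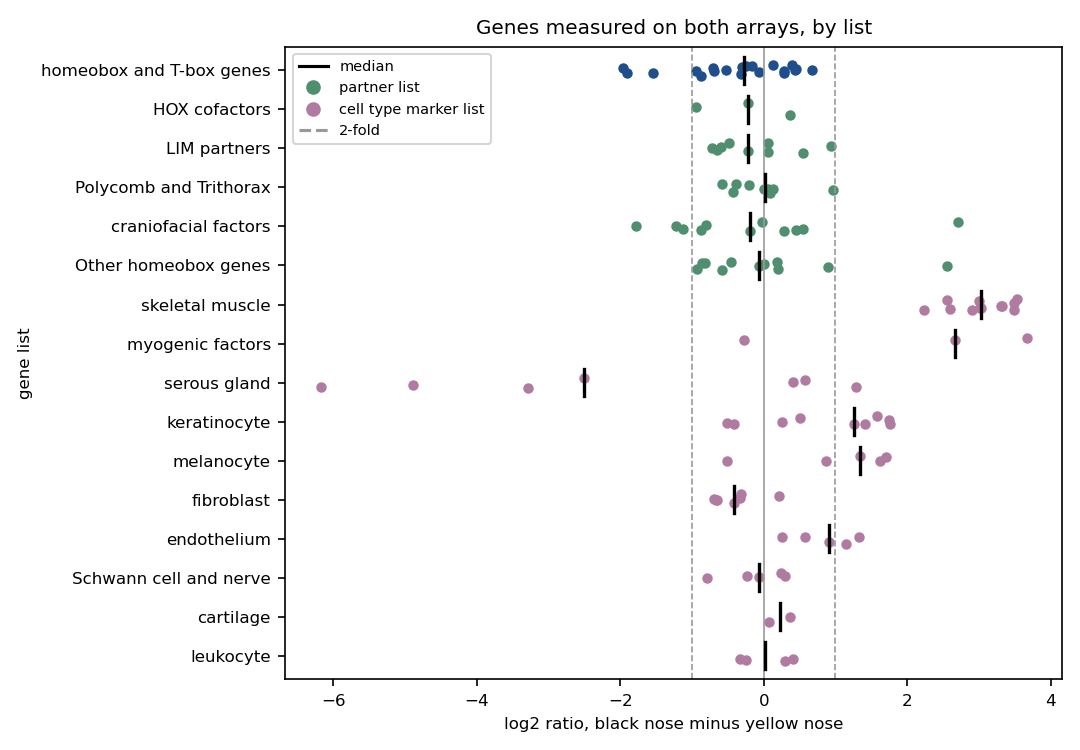
Log2 ratio (x axis, black minus yellow nose) of each gene measured in both cows, for the homeobox and T-box genes and for the lists of partner genes and cell type markers. Black bars are medians. The median of the homeobox and T-box genes is -0.28, and those of the partner lists lie between -0.22 and 0.02. Skeletal muscle genes lie right of 2-fold and the lowest serous gland genes far left.

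The muzzle pieces of the cows also differed in the markers of other tissues. All 12 skeletal muscle genes found were measured and were at least 2-fold higher in the black-nosed cow, with a median log2 ratio of 3.02, and their summed level, in units of the 75th percentile, went from 198 to 1374. Of the muscle regulators, MYF6 (3.67) and MYOG (2.67) were higher there, MYF5 was above background only there, and MYOD1 had a ratio of -0.28. The part of muscle in the homeobox ratios was not tested. Of 8 serous gland genes found, 7 were measured in both cows. MSMB, PIP, PIGR and CA6 were at least 2-fold lower in the black-nosed cow, BPIFA1 was at least 2-fold higher, and LPO and LYZ had ratios of 0.57 and 0.40. The summed level went from 260 to 16.4, and in the yellow-nosed cow it rests mostly on PIP, with log2 levels of 7.39 there and 2.50 in the other. ODAM was above background in neither cow. The part of the gland in the lower MEIS1, HOXC4, TBX19, IRX3 and EYA2 signals was not tested either.

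Epidermis was present in both pieces. The keratinocyte genes KRT5 and KRT14 had mean levels of 6.32 and 7.52 in the yellow-nosed cow and 5.80 and 7.12 in the black-nosed cow. All 9 keratinocyte genes found were measured, and 5 were at least 2-fold higher in the black-nosed cow. KRT5 and KRT14 had ratios of -0.52 and -0.41, and the other 7 had ratios above 0. The summed level went from 480 to 788, a rise that rests mostly on KRT10, with log2 levels of 6.92 and 8.49. For 7 fibroblast genes the sum went from 45.4 to 34.1 with a median log2 ratio of -0.42, none past 2-fold. For 6 melanocyte genes found, of which TYRP1 was above background only in the black-nosed cow, the sum went from 2.68 to 5.34. The medians were 0.90 for 5 endothelial genes, -0.07 for 5 genes of Schwann cells and nerve and 0.02 for 4 leukocyte genes. Of 4 cartilage genes, COL2A1 and MATN1 had ratios of 0.07 and 0.37, but the measured probes of COL2A1 ranged from -0.96 to 1.46. HAPLN1 was above background only in the yellow-nosed cow and ACAN in neither. The parts of these cell types in the homeobox ratios were not tested.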

How the data were processed

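Muzzle RNA of 1 yellow-nosed and 1 black-nosed cow was hybridised to Agilent 1-colour arrays. The authors deposited the Feature Extraction 10.7.3.1 output, in which the processed signal is a background-subtracted intensity. A table of log2 values, deposited by the authors, was within 0.01 of the levels used here for 43627 of 43639 probes on either array and served as an alternative.

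The log2 processed signal minus its 75th percentile on each array was the level. Outlier spots (21, none of a member) were dropped and repeated spots averaged. Accessions gave a symbol to 20587 probes (47.2%) through the RefSeq table of ARS-UCD2.0. Probes left without a symbol may include further members, and 12266 probes carried Ensembl transcript names. The array was designed on Btau_3.1, so no coordinate is given. The files name no genes, so the planned match by gene name was not possible, and no probe sequence was used. Cross-hybridisation between homeobox paralogs was therefore not checked. A gene's ratio is the mean over probes measured on both arrays, otherwise the largest lower bound. Named are members past 2-fold, the 3 brightest of each family, those on 1 array only or with probes over 1 log2 unit apart, and the 3 highest and lowest of each partner list. The other members, genes of the marker lists and absent genes named as examples fall outside this rule and were chosen after the values were seen. Some genes of the naming rule are not reported here and enter no count of members. Members and lists were chosen with earlier results of these data known.

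With 1 array per group no test or p-value was computed, and precision is limited by the number of arrays. Alternatives were quantile and loess (span 0.3) normalization, a 50th percentile shift, no shift, normexp (offset 50) on the median pixel signal in place of the planned mean, other filters, thresholds of 1.5-fold and 3-fold, and counting by probe. Python 3.11.15, numpy 2.4.6, pandas 2.3.3, R 4.3.3 and limma 3.58.1 were used. The computation of ratios and bounds was checked on simulated data with known differences, which says nothing about the cows.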

Additional observations from a re-analysis of the deposited data

How the results depend on the processing

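Counts of genes moved with the setting. Genes at least 2-fold higher numbered 1 as reported and 3 without a filter on dim probes. They numbered 0 under quantile normalization, under normexp and with probes above background on both arrays only. At thresholds of 3-fold and 1.5-fold, 0 and 3 genes were higher. Genes at least 2-fold lower numbered 3 as reported, 7 under quantile normalization, 6 under loess, 5 by the brightest probe and 2 without a filter on dim probes. At 1.5-fold 10 genes were lower, and counted by probe 7 probes were at least 2-fold lower. The median log2 ratio of all members lay between -0.42 and -0.17. Under quantile, loess and normexp the HOX median was 0.010, 0.044 and 0.094, and under quantile and loess that of LHX 0.072 and 0.073. Normexp gave -0.61 for MEIS and PBX and -1.41 for TBX. Averaging dim probes in, as they were or at the detection limit, gave -0.32 for DLX, MSX and BARX and turned that of ALX and PRRX, which rests on PRRX1 and ALX4, from 0.28 to -0.32. The brightest probe of each gene gave -0.80 for DLX, MSX and BARX, -1.50 for IRX and -1.04 for MEIS and PBX. BARX2 turned to -0.033 under quantile normalization. Without a filter the median of the HOX cofactors turned to 0.077 and that of cartilage to -0.34, and at the detection limit that of cartilage to -0.27. The cause of these moves was not tested. List medians near 0 also changed sign, for Polycomb and Trithorax (0.02, down to -0.26 by the brightest probe), leukocytes (0.02, down to -0.11 by the brightest probe) and other homeobox genes (-0.06, up to 0.096 without a filter). Gene ratios passed 2-fold in 11 cases, over 8 genes, and fell short of it in 3. Matching by accession alone was already the reported setting. No paired analysis was possible because each group is 1 array. Dim signal limits most of the HOX and LHX genes that were found.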

Other observations

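Further homeobox genes outside the families above were measured for 11 of 34 listed. HOPX, an atypical homeobox gene of differentiating epidermis and of muscle and other tissues, had the highest log2 ratio, 2.55, and was the 1 gene of the list past 2-fold. Its 3 probes agreed, with intensities from 5288 to 26450, from 2623 to 15647 and from 193 to 1285 and ratios of 2.33, 2.59 and 2.74. MEOX2, a gene of muscle and vessels, lay at 0.90, the mean of probes at 0.55 and 1.24, and ZEB2 came next with 0.19. The lowest were SATB1 (-0.93, from 3 probes between -1.14 and -0.73), HLX (-0.87) and EMX2 (-0.82). All 4 probes of EMX2 measured in both cows lay below 0, from -1.33 to -0.24. For HLX a further probe was well above background in the black-nosed cow alone, with a lower bound of 1.51 in the opposite direction. The median of the list was -0.06, and NKX2-5 was above background in neither cow.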
